A study of Mus musculus with 6 samples.

Results

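Nuclear receptors are transcription factors that bind small lipophilic ligands, or in the orphan members no known hormone, and switch target genes on or off. The 43 nuclear receptor genes described here were taken by gene symbol from the 46983 genes of an RNA-seq table of mouse aortic valves by a fixed list of names. The table compares wild type C57BL/6J valves isolated at postnatal day 2 (PND2), while the leaflets still grow, with valves isolated at 4 months of age. Each age has 3 libraries, numbered as biological replicates 1 to 3, and each library pools the valves of 5 to 6 mice, so that differences between single animals cannot be seen. The question addressed is how the set of receptors available to valve cells differs between the growing and the adult valve.

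In this protein family, ligand-bound receptors act alone, as pairs of the same receptor (the steroid receptors), or paired with a retinoid X receptor (the retinoic acid, thyroid hormone, vitamin D, PPAR and liver X receptors). Without ligand, several of the latter hold corepressors on their targets, and ligand exchanges these for coactivators. The NR4A receptors differ in that their activity follows their own transcription, which is induced within a short time by many extracellular signals. Retinoic acid is needed for formation of the outflow tract, from which the aortic valve develops.

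Levels are given as RPKM, the reads on a gene per kilobase of exon and scaled to the total of the library. The length is that of all annotated exons of a gene, used or not, and some genes share exons. The order of different genes with close levels therefore rests on these lengths. Library totals, which were inferred from the RPKM values, ran from 23810507 to 38994657. A single read on 1 kb of exon was worth 0.0256 to 0.0420 RPKM. Differences between the ages are log2 fold changes of RPKM + 0.1 (4 months against PND2) with their standard error (SE) from limma, with p adjusted by the Benjamini-Hochberg method over 25903 genes, and a gene is called at an adjusted p under 0.05. Valve interstitial markers were abundant at both ages, with a summed level of 6096 to 6563 RPKM at PND2 and 7714 to 9748 RPKM at 4 months. Of these 9 markers Dcn and Lum were called higher and Col1a1, Col3a1, Postn and Tbx20 lower. Vim was not called but had means of 1360 RPKM at PND2 and 1989 RPKM at 4 months. The rise of the sum thus follows Dcn, Vim and Lum. The other tissues in the pools were not the same at the 2 ages. Cardiomyocyte markers summed to 8385 to 10250 RPKM at PND2 and 4284 to 6619 RPKM at 4 months, smooth muscle markers to 7382 to 8549 and 16638 to 27581 RPKM, endothelial markers to 376 to 508 and 239 to 248 RPKM, and macrophage markers to 192 to 245 and 407 to 523 RPKM. Their part in the receptor differences was not tested. The sex of the mice is not stated. Xist, the RNA of the inactive X chromosome, stood at 109, 0.0457 and 0.101 RPKM in the PND2 libraries and at 0.154, 110 and 40.8 RPKM at 4 months, so that both ages hold pools that differ in it.

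Of the 43 receptors, 37 reached 0.1 RPKM in no fewer than 3 libraries and were tested. Expression of 14 rose and of 2 fell between PND2 and 4 months, while 21 were not called. The members called made up 43.2% of those tested, where 35.8% of all genes tested were called in either direction. In the higher direction the share was 37.8% of members against 14.7% of all genes, and in the lower direction 5.41% against 21.1%. After median scaling of the libraries, 18 members were higher and 2 lower, and over all genes the calls moved from 3810 higher and 5463 lower to 4601 higher and 4129 lower. The median log2 fold change was 0.41 over the tested members and -0.14 over all genes, the latter moving to -0.02 with median scaling. A fold change above 2 together with the call was found for 9 members that rose (8.72% of all genes) and for 1 that fell (8.47% of all genes). Libraries of one age all lay above those of the other in 22 of the 37 members, or 59.5%, beside 50% of all genes. With the unequal-variance test that the study used, 10 members were called at an adjusted p under 0.05. Nr3c2, Rara, Nr4a3, Ppard, Nr1h2 and Nr2f2 were not. The paper counted genes of that test at an FDR under 0.1. Nr2f2 missed this limit too (unequal-variance test adjusted p = 0.105), while the other members just named had 0.0569 to 0.0995. In bulk tissue, fewer cells of a type and less RNA per cell cannot be told apart, and this holds for every difference below.

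**Figure D1:**
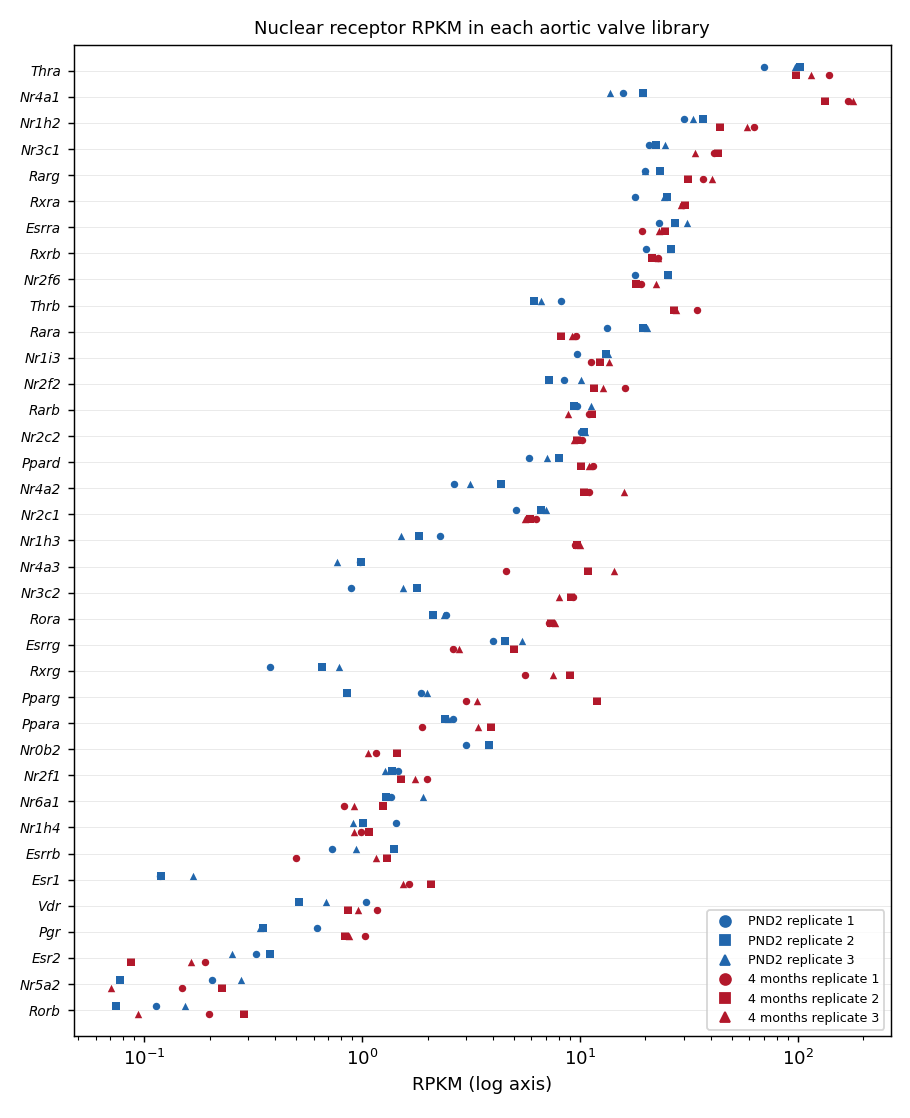
RPKM (log axis) of the 37 tested nuclear receptors in each library, with PND2 in blue, 4 months in red and a marker shape for each replicate; genes are ordered by their mean over all 6 libraries. Thra leads at PND2, with 70.2 to 102 RPKM, and Nr4a1 has the highest mean at 4 months, with 134 to 180 RPKM.

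The order of the receptors changed with age. At PND2 the thyroid hormone receptor gene Thra had the highest level of all members in each library and held 20.9 to 24.4% of the RPKM summed over the 43 genes. At 4 months the highest level was that of Nr4a1 in each library, with 21.2 to 25.5% of the sum. Nr4a1 had ranked 10 by its mean at PND2, and its 4-month values overlapped those of Thra, the next in order. The summed RPKM of the family was 335 to 419 at PND2 and 631 to 717 at 4 months. From 27 to 28 members reached 1 RPKM in a PND2 library and 30 to 32 in a library of 4 months. Below the leaders the order was tight: at PND2 every gene from Nr1h2 (33.3 ± 3.27 RPKM, SD, n = 3) down to Nr4a1 (16.4 ± 2.95 RPKM) overlapped its neighbor.

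**Figure D2:**
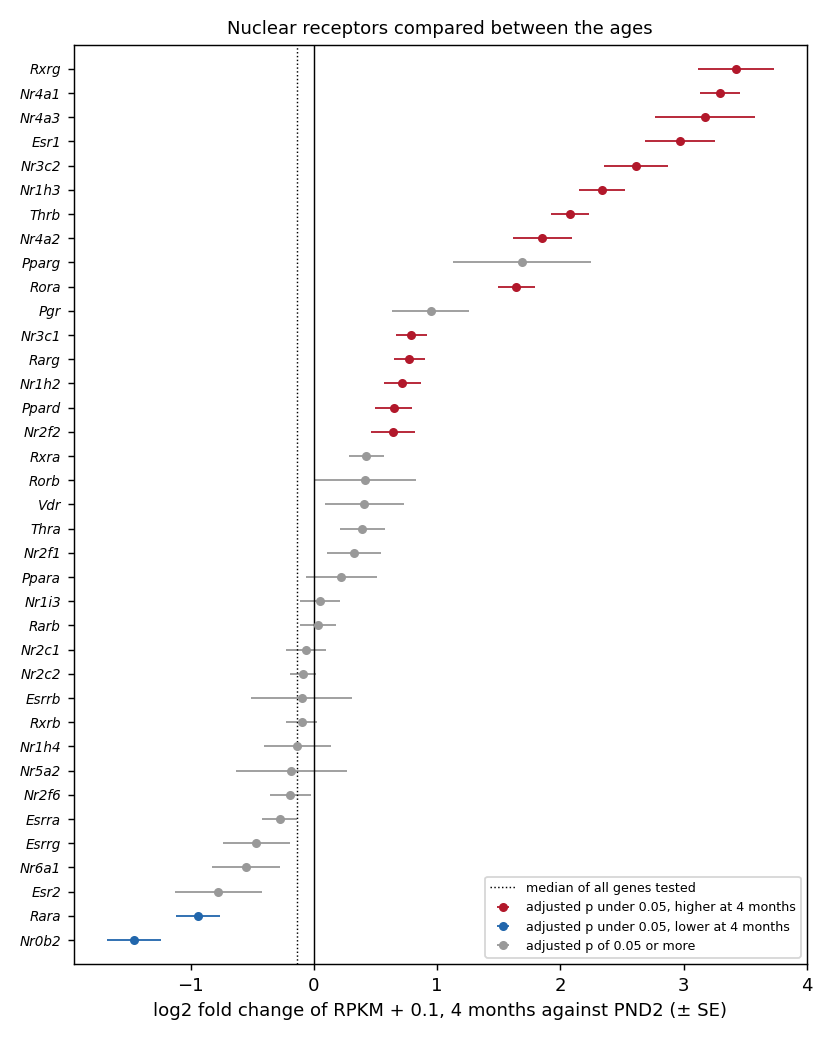
Log2 fold change of RPKM + 0.1 between the ages for the 37 tested receptors, with bars for the SE; red and blue points were called higher and lower at 4 months, grey points were not called, and the dotted line is the median of all genes tested (-0.14). The largest rises are those of Rxrg, Nr4a1, Nr4a3 and Esr1, and Nr0b2 and Rara are the members that fell.

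All 3 NR4A receptors rose. These orphan receptors (also known as Nur77, Nurr1 and Nor1) bind DNA without a known hormone and are induced as immediate early genes. Nr4a1 (chromosome 15 of mm10 from 101266846 to 101274792) stood at 15.9, 19.6 and 13.8 RPKM in the PND2 libraries and at 170, 134 and 180 RPKM at 4 months. The lowest adult library was thus several times the highest postnatal library, and the log2 fold change was 3.29 (SE 0.16, limma adjusted p = 3.5e-05). Nr4a2 (chromosome 2 from 57106830 to 57124003) had 2.64, 4.33 and 3.14 RPKM at PND2 and 11.0, 10.4 and 15.9 RPKM at 4 months, with no overlap and a log2 fold change of 1.85 (SE 0.24, limma adjusted p = 0.00137). Nr4a3 (chromosome 4 from 48045153 to 48086447) had 0.977, 0.991 and 0.765 RPKM at PND2 and 4.59, 10.9 and 14.3 RPKM at 4 months. Its adult libraries spread more than those of the other 2 genes, replicate 1 being lowest, and the log2 fold change was 3.17 (SE 0.40, limma adjusted p = 0.0013).

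The promoters of the 3 genes are shown because they share a short sequence at unusual density. RefSeq (GRCm38.p6) gives the 250 bases before the start site, printed 5′ to 3′ on the gene's strand, and capitals mark TGACG, the core of the half-site bound by CREB and ATF factors, on either strand (CGTCA on the printed one). The windows are chr15:101266596-101266845 on the plus strand for Nr4a1, chr2:57124004-57124253 on the minus strand for Nr4a2 and chr4:48045055-48045304 on the plus strand for Nr4a3. The RefSeq start of Nr4a3 lies downstream of the start of the gene in the deposited table, so that its window runs into the gene as placed above and its last marked copy lies inside it.
Nr4a1: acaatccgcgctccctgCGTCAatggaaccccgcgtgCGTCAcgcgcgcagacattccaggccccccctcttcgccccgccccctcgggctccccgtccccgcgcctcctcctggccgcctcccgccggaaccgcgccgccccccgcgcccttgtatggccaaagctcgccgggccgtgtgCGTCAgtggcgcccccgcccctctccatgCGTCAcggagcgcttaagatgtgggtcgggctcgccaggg
Nr4a2: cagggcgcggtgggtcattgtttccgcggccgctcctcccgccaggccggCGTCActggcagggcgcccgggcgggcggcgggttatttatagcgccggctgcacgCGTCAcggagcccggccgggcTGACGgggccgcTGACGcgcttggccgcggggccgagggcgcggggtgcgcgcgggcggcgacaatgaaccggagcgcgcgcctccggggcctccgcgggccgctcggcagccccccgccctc
Nr4a3: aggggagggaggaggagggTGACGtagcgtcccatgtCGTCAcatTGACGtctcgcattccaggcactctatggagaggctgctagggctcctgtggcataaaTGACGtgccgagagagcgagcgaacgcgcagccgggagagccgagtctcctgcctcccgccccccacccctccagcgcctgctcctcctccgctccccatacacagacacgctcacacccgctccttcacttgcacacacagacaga
Each window holds 4 copies. The motif was present in 5836 of 32851 promoter windows of this length (17.8%) and occurred at least 4 times in 45 of them (0.137%). Of the 60 promoter windows given for 39 of the member genes, 13 held the motif (21.7%), and only the 3 NR4A genes had 4 or more copies in a window. A match describes the sequence and does not show that a factor was bound in these valves.

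Other immediate early genes rose as well. Of 9 such genes, 8 were called higher at 4 months and none lower (14.7% and 21.1% of all genes tested, against which the later lists are read too), and their summed level was 186 to 212 RPKM at PND2 and 620 to 907 RPKM at 4 months. Atf3, a stress-induced transcription factor, stood at 15.8, 9.49 and 6.87 RPKM and then at 133, 125 and 213 RPKM (log2 fold change 3.90, SE 0.32, limma adjusted p = 2.3e-04). Fosb, a subunit of AP-1, rose by 3.52 on the log2 scale (SE 0.28), Fos, another AP-1 subunit, by 2.85 (SE 0.38) and Dusp1, a MAP kinase phosphatase, by 2.14 (SE 0.20). Among the 4-month libraries Fos was highest in replicate 1 (97.2 RPKM, beside 32.3 and 39.6 RPKM), the library in which Nr4a3 was lowest. Junb, Egr1, Ier2, Btg2 and Dusp1 were also highest in replicate 1. Atf3, Fosb and Jun were highest in replicate 3, as were Nr4a1, Nr4a2 and Nr4a3. What part the immediate early genes have in the NR4A difference was not tested.

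**Figure D3:**
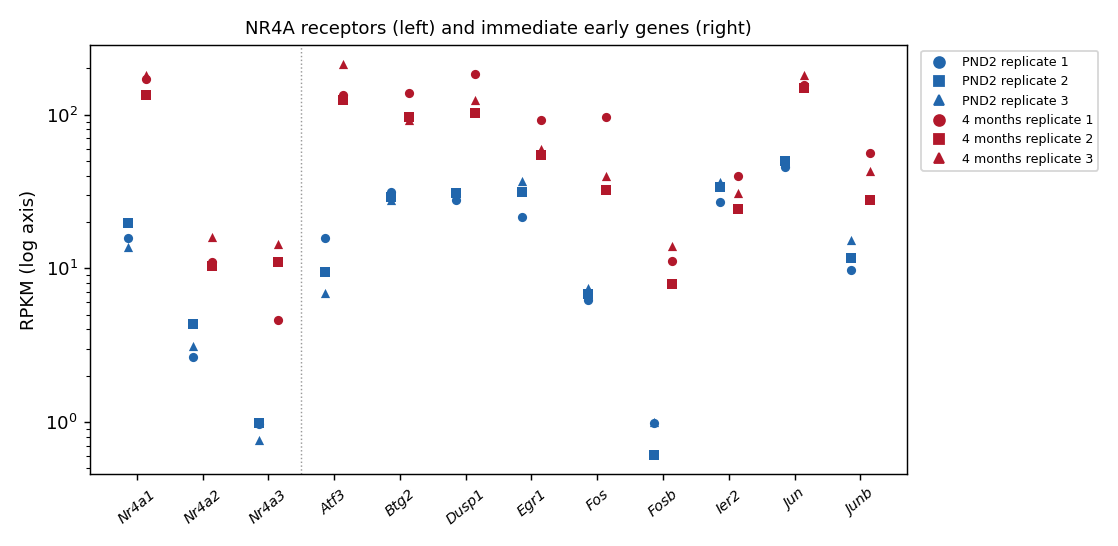
RPKM (log axis) of the 3 NR4A receptors and of 9 immediate early genes in each library, with PND2 in blue, 4 months in red and a marker shape for each replicate. The red points of Nr4a1, Nr4a2 and Nr4a3 all lie above the blue points, as do those of every immediate early gene except Ier2.

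Among the steroid receptors, expression of Esr1, Nr3c2 and Nr3c1 rose. Esr1, which encodes estrogen receptor alpha (chromosome 10 from 4611593 to 5005614), had 0.118, 0.120 and 0.168 RPKM at PND2 and 1.65, 2.07 and 1.54 RPKM at 4 months, from 50 to 67 reads in a PND2 library and 609 to 841 reads in an adult library. The groups were far apart, with a log2 fold change of 2.97 (SE 0.29, limma adjusted p = 4.1e-04). Esr2, the gene of estrogen receptor beta, was at 0.327, 0.379 and 0.254 RPKM and then at 0.191, 0.0873 and 0.164 RPKM. These values, from 7 to 43 reads, did not overlap but were not called (log2 fold change -0.78, SE 0.35, limma adjusted p = 0.13). Pgr, the progesterone receptor gene, had 0.621, 0.353 and 0.340 RPKM at PND2 and 1.03, 0.835 and 0.873 RPKM at 4 months. It narrowly missed the threshold (log2 fold change 0.95, SE 0.31, limma adjusted p = 0.0512), and was called in 7 of 16 alternatives: without PND2 replicate 1, its highest PND2 library (limma adjusted p = 0.0292), and with median scaling, quantile normalization, voom, a pseudocount of 1, no trend or a floor at 10 reads.

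Nr3c2 encodes the mineralocorticoid receptor, which binds aldosterone and also glucocorticoids (chromosome 8 from 76899442 to 77245012). It had 0.891, 1.78 and 1.55 RPKM at PND2 and 9.27, 9.11 and 8.06 RPKM at 4 months, with the adult libraries close together and well above the others (log2 fold change 2.61, SE 0.26, limma adjusted p = 4.8e-04). Nr3c1, the glucocorticoid receptor gene, had 20.8, 22.3 and 24.7 RPKM at PND2 and 41.3, 42.9 and 33.7 RPKM at 4 months, a smaller rise with no overlap (log2 fold change 0.79, SE 0.13, limma adjusted p = 0.00309). Within a library, Nr3c1 was thus 23.4, 12.5 and 16.0 times Nr3c2 at PND2 and 4.45, 4.71 and 4.18 times Nr3c2 at 4 months. Hsd11b1, whose enzyme regenerates active glucocorticoid inside cells, rose from 1.52, 1.29 and 1.503 RPKM to 12.4, 8.30 and 12.5 RPKM (log2 fold change 2.84, SE 0.21, limma adjusted p = 1.6e-04). Hsd11b2, whose enzyme inactivates glucocorticoid and was chosen after its values were seen, was at 0.746 to 1.24 RPKM at PND2 and 1.59 to 2.22 RPKM at 4 months (limma adjusted p = 0.0558).

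Targets of the glucocorticoid receptor were called higher or not called, and PND2 replicate 1 stood apart in some of them. Of 11 listed targets, 4 rose (Klf9, Dusp1, Mt2 and Cdkn1a) and none fell, with a median log2 fold change of 1.03. The cell cycle inhibitor gene Cdkn1a rose by 1.28 on the log2 scale (SE 0.19). Mt2, a metallothionein gene, had 59.4, 12.8 and 17.5 RPKM at PND2 and 70.6, 59.1 and 101 RPKM at 4 months, PND2 replicate 1 lying near the adult values, and its call (limma adjusted p = 0.0459) was lost without any 1 library other than that one (0.136 at most). Fkbp5, a chaperone gene induced by glucocorticoid and named after its values were seen, was also highest in that library, at 24.4 RPKM beside 7.99 and 7.06 RPKM, and at 4.53 to 6.02 RPKM in the adult libraries (limma adjusted p = 0.0928). Of 7 estrogen targets, 2 were called higher and 2 lower. Ctsd, a lysosomal protease gene, rose by 0.66 on the log2 scale (SE 0.11), whereas Cxcl12, a chemokine gene, fell by 1.17 (SE 0.18) and Igf1, a growth factor gene, by 0.82 (SE 0.13).

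The 3 retinoic acid receptors, which bind all-trans retinoic acid, moved apart. Rara had 13.3, 19.4 and 20.3 RPKM at PND2 and 9.65, 8.21 and 9.23 RPKM at 4 months, and fell by 0.94 on the log2 scale (SE 0.18, limma adjusted p = 0.00662) with no overlap. Rarg had 20.02, 23.4 and 19.9 RPKM at PND2 and 37.0, 31.4 and 40.4 RPKM at 4 months, and rose by 0.77 (SE 0.13, limma adjusted p = 0.00343). Rarb had 9.67, 9.44 and 11.3 RPKM and then 11.0, 11.4 and 8.86 RPKM, overlapping values with a log2 fold change of 0.04 (SE 0.15). Rara and Rarg were near each other within the PND2 libraries, Rara being 0.664, 0.831 and 1.02 times Rarg. In the adult libraries Rara was 0.261, 0.262 and 0.229 times Rarg. The difference in log2 ratio was -1.72, and the exact permutation test gave its smallest possible p of 0.1.

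Genes that supply retinoid changed as well. Of 14 genes of retinoid supply and breakdown, 6 rose and 2 fell. Rbp4, which encodes the carrier of retinol in blood, rose from 2.63, 1.36 and 2.16 RPKM to 124, 112 and 98.6 RPKM (log2 fold change 5.74, SE 0.23, limma adjusted p = 2.1e-05). Stra6, the gene of the receptor for that carrier, had 0.0660 to 0.147 RPKM at PND2 and 0.807 to 1.47 RPKM at 4 months (log2 fold change 2.61, SE 0.35). Of the 6 genes that rose, Stra6 and Lrat would not have passed the filter on RPKM with their PND2 libraries alone. The retinoic acid-forming dehydrogenase genes Aldh1a1 and Aldh1a3 rose by 2.07 (SE 0.33) and 1.87 (SE 0.22) on the log2 scale. Aldh1a2, another such gene, named after its values were seen, did not rise. It had 10.1 to 13.4 RPKM at PND2 and 7.23 to 11.1 RPKM at 4 months (log2 fold change -0.37, SE 0.19, limma adjusted p = 0.175). Of 10 genes known as retinoic acid targets, some of them on the former list, 4 rose and 1 fell. Rarres2, a chemerin gene named for its response to retinoid, had 75.8, 65.1 and 71.6 RPKM at PND2 and 268, 172 and 210 RPKM at 4 months (log2 fold change 1.59, SE 0.16), and Dhrs3, which reduces retinaldehyde, rose by 1.15 (SE 0.22). Cyp26a1, which degrades retinoic acid, went the other way, from 8.23, 21.0 and 13.0 RPKM to 4.38, 4.22 and 7.54 RPKM, and fell by 1.32 (SE 0.37, limma adjusted p = 0.0279). This call was lost without PND2 replicate 2 or 3 or 4 months replicate 1 or 2 (limma adjusted p of 0.0812 at most).

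Of the retinoid X receptors, the common partners of the family, only Rxrg was called. Rxrg (chromosome 1 from 167598384 to 167639623) had 0.380, 0.656 and 0.789 RPKM at PND2 and 5.62, 9.01 and 7.57 RPKM at 4 months, and its log2 fold change of 3.43 (SE 0.31, limma adjusted p = 3.1e-04) was the largest among the members on this scale. By voom, without the added 0.1, the log2 fold change was 3.64 for Rxrg and 3.69 for Esr1. Rxra had 17.9, 25.2 and 24.3 RPKM at PND2 and 29.9, 30.4 and 29.2 RPKM at 4 months, without overlap but short of the threshold (log2 fold change 0.42, SE 0.14, limma adjusted p = 0.0524). It was called without PND2 replicate 2 (limma adjusted p = 0.0482) and with median scaling, quantile normalization, voom or a filter at 1 RPKM. Rxrb had 20.2 to 26.1 RPKM at PND2 and 21.5 to 22.8 RPKM at 4 months, with overlapping values. Rxra was 47.2, 38.4 and 30.8 times Rxrg in the PND2 libraries and 5.32, 3.38 and 3.86 times Rxrg in the adult ones. Rxra therefore stayed above Rxrg in every library. Against Rxrb, Rxra was lower in RPKM in all PND2 libraries (0.887, 0.964 and 0.934 times) and higher in all adult libraries (1.31, 1.42 and 1.28 times). The PND2 order rests on exonic lengths of 5462 bases for Rxra and 3698 for Rxrb. In PND2 reads Rxra was above Rxrb (3818, 4198 and 3880 beside 2915, 2947 and 2814).

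**Figure D4:**
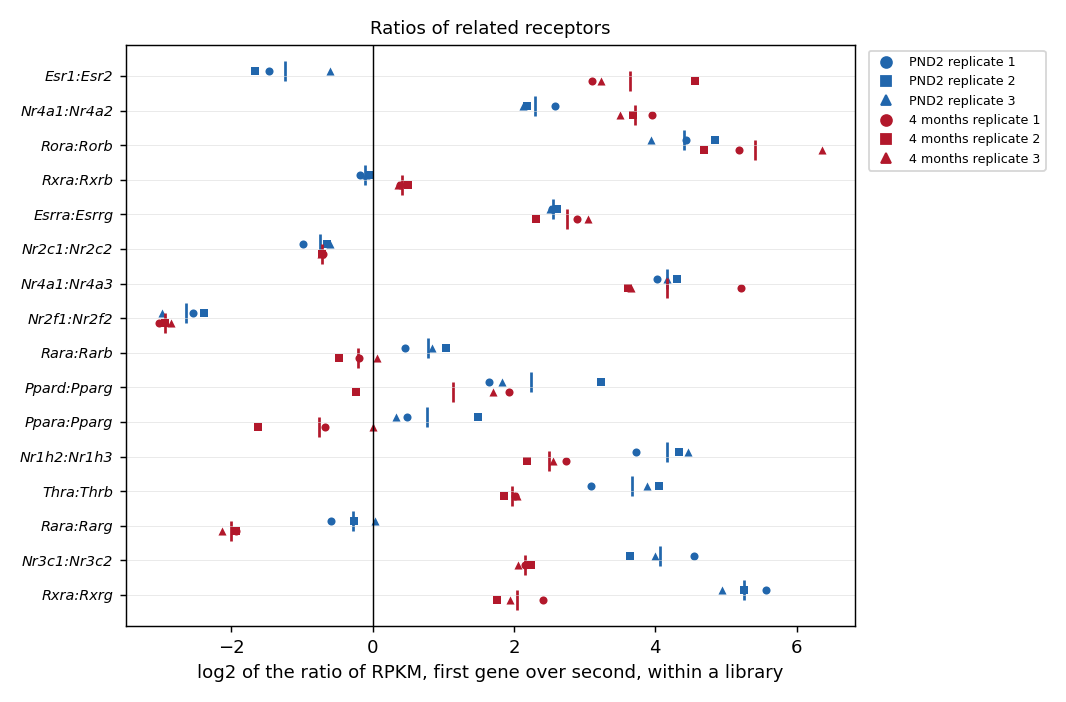
Log2 of the RPKM ratio of 2 related receptors within a library, for 16 pairs, with PND2 in blue, 4 months in red, a marker shape for each replicate and a vertical bar at the mean of an age. The ages do not overlap in 10 pairs, and the largest differences are those of Esr1 to Esr2 (4.88) and of Rxra to Rxrg (-3.22).

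Ratios of 2 receptors within a library do not depend on how libraries are scaled. Of 16 pairs of related receptors, 10 had ratios that did not overlap between the ages. Single genes did not overlap in 50% of all cases tested, no such share was computed for ratios of other genes, and some pairs share a receptor. With 3 libraries against 3 the exact permutation test cannot give a 2-sided p below 0.1, which became 0.16 after Benjamini-Hochberg adjustment over the 16 pairs, so that none could pass. Esr1 was 0.361, 0.316 and 0.661 times Esr2 at PND2 and 8.64, 23.7 and 9.38 times Esr2 at 4 months. By RPKM the order of the estrogen receptors was thus opposite in all libraries of the 2 ages, on few reads for Esr2. The PND2 order rests on the exonic length that RPKM divides by, 13661 bases for Esr1 and 3368 for Esr2. In reads, Esr1 was above Esr2 at PND2 as well (63, 50 and 67 beside 43, 39 and 25). The change in the ratio does not depend on these lengths. Nr4a1 was 4.39 to 6.01 times Nr4a2 at PND2 and 11.3 to 15.5 times at 4 months, while its ratio to Nr4a3 overlapped. The pairs Nr2c1 to Nr2c2, Nr2f1 to Nr2f2, Rora to Rorb, Esrra to Esrrg and Ppard to Pparg overlapped as well.

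Thyroid hormone receptor beta rose over a high level of the alpha gene. Thrb (chromosome 14 from 17660960 to 18038088) had 8.22, 6.19 and 6.62 RPKM at PND2 and 34.6, 27.2 and 27.8 RPKM at 4 months, with a wide gap between the ages (log2 fold change 2.08, SE 0.15, limma adjusted p = 1.5e-04). Thra had 70.2, 102 and 97.3 RPKM at PND2 and 139, 98.7 and 115 RPKM at 4 months, overlapping values that were not called (log2 fold change 0.39, SE 0.18, limma adjusted p = 0.135). Thra was 8.54, 16.5 and 14.7 times Thrb in the PND2 libraries and 4.03, 3.63 and 4.13 times Thrb in the adult libraries. Its end overlaps the clock repressor gene Nr1d1 on the opposite strand over 263 exonic bases, and the sources used here do not say if reads were counted by strand. Nr1d1 had 12.5, 19.96 and 22.9 RPKM at PND2 and 120, 105 and 121 RPKM at 4 months. The distal last exon of Thra, which meets Nr1d1 (exon 10 of transcript Thra-201, chromosome 11 from 98768157 to 98769006), had 89.9, 121 and 128 RPKM at PND2 and 228, 149 and 203 RPKM at 4 months. The proximal last exon, which ends the hormone-binding form (exon 9 of Thra-202, from 98764278 to 98765111, which includes 128 bases that Thra-201 also uses), had 59.2, 85.9 and 82.0 RPKM and then 97.5, 70.6 and 87.0 RPKM, so that its ages overlapped while those of the exon shared with Nr1d1 did not.

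Genes that respond to thyroid hormone rose in 4 of the 5 cases tested, with 1 further gene of the list, Dio1, without reads. Hr, a corepressor gene directly induced by the hormone, went from 2.29, 1.88 and 1.89 RPKM to 20.04, 19.87 and 23.2 RPKM (log2 fold change 3.32, SE 0.15, limma adjusted p = 2.7e-05). Klf9, a Krüppel-like factor gene that glucocorticoid also induces, had 19.99, 9.24 and 10.6 RPKM at PND2 and 51.4, 70.0 and 61.6 RPKM at 4 months (log2 fold change 2.26, SE 0.28). Dbp, which is also an output gene of the circadian clock, rose by 2.12 (SE 0.24). Thrsp, a lipogenic gene, had 0.269, 0.599 and 0.640 RPKM and then 16.4, 96.5 and 21.3 RPKM, with replicate 2 highest as it was for the adipocyte markers. Dio2, whose enzyme forms active T3 from T4, rose from 2.78, 3.78 and 3.92 RPKM to 10.4, 13.1 and 12.8 RPKM (log2 fold change 1.77, SE 0.18, limma adjusted p = 5.4e-04), and was 1 of 2 genes called among 7 for hormone supply and breakdown. The other was Dio3, named after its values were seen, which also rose at a low level. It had at most 0.0161 RPKM at PND2 and 0.251 to 0.425 RPKM at 4 months (log2 fold change 1.96, SE 0.37, limma adjusted p = 0.00624). Dio3 passed the filter of 0.1 RPKM only through its adult libraries, so that a rise was the only call open to it. Vdr, the vitamin D receptor gene, stayed low at 0.516 to 1.17 RPKM with overlapping ages.

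Both liver X receptors, which bind oxysterols and control cholesterol efflux, rose. Nr1h3, the alpha form (chromosome 2 from 91184061 to 91202834), had 2.28, 1.82 and 1.51 RPKM at PND2 and 9.49, 9.69 and 10.001 RPKM at 4 months, with the adult libraries almost equal (log2 fold change 2.33, SE 0.19, limma adjusted p = 2.1e-04). Nr1h2, the widely expressed beta form, had 30.2, 36.7 and 33.2 RPKM at PND2 and 63.2, 44.2 and 58.7 RPKM at 4 months (log2 fold change 0.72, SE 0.15, limma adjusted p = 0.01). Nr1h2 was 13.2, 20.1 and 22.0 times Nr1h3 at PND2 and 6.66, 4.56 and 5.87 times at 4 months. Macrophages are a known site of Nr1h3 expression, and 5 of the 6 macrophage markers were called higher at 4 months, none of them being at 0 at PND2, with their part in the difference not tested. The farnesoid X receptor gene Nr1h4 was near 1 RPKM at both ages (0.905 to 1.44 and 0.915 to 1.08 RPKM). Nr1i3, the constitutive androstane receptor gene of liver, was listed at 9.68 to 13.4 and 11.2 to 13.6 RPKM, but shares 3304 exonic bases with Tomm40l on the opposite strand, so that its reads cannot be assigned to it.

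Of 9 liver X receptor targets, which include Nr1h3 itself, 6 rose and 1 fell. The gene that fell was Lpcat3, a phospholipid acyltransferase gene (log2 fold change -0.85, SE 0.12, limma adjusted p = 0.0019). The cholesterol efflux transporter genes Abca1 and Abcg1, named after their values were seen, were not called, with log2 fold changes of -0.61 (SE 0.24, limma adjusted p = 0.0827) and -0.44 (SE 0.24, limma adjusted p = 0.191). Pltp, which transfers phospholipid between lipoproteins, rose from 16.9, 13.0 and 17.2 RPKM to 103, 76.9 and 96.3 RPKM (log2 fold change 2.55, SE 0.16, limma adjusted p = 7.0e-05). Apoe, the apolipoprotein gene, had 496, 603 and 752 RPKM and then 1559, 1233 and 1538 RPKM (log2 fold change 1.24, SE 0.19). Scd1, the stearoyl-CoA desaturase gene, rose by 4.63 (SE 0.76), with 66.9, 715 and 123 RPKM in the adult libraries, again highest in the library richest in adipocyte markers. Among the enzymes of steroid, vitamin D and oxysterol metabolism, 4 of the 8 tested rose and 1 fell. The sterol hydroxylase genes Cyp27a1 and Ch25h, both of which form oxysterols, rose by 1.69 (SE 0.22) and 1.39 (SE 0.25), and the steroid reductase gene Srd5a1 fell by 1.30 (SE 0.24).

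Of the PPARs, the fatty acid receptors, Ppard was called higher and Ppara and Pparg were not called. Ppard had 5.85, 8.03 and 7.04 RPKM at PND2 and 11.5, 10.2 and 11.0 RPKM at 4 months (log2 fold change 0.65, SE 0.15, limma adjusted p = 0.0145), and lost the call without 4 months replicate 3 (limma adjusted p = 0.0514). Ppara, the form of oxidative tissues, had 2.4 to 2.61 RPKM at PND2 and 1.88, 3.92 and 3.40 RPKM at 4 months, with overlap. Pparg, the receptor gene of adipocytes, had 1.87, 0.854 and 1.98 RPKM at PND2 and 3.00, 12.0 and 3.38 RPKM at 4 months. All adult libraries exceeded all postnatal ones, but replicate 2 was far above the others, and the difference missed the threshold (log2 fold change 1.69, SE 0.56, limma adjusted p = 0.0525). It was called in 4 of 17 alternatives: without 4 months replicate 1 (limma adjusted p = 0.0436) and with median scaling, voom or a filter at 1 RPKM. The adjusted p was highest among libraries left out without PND2 replicate 2 (0.137), and without 4 months replicate 2 the log2 fold change was 1.06 (limma adjusted p = 0.0922).

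Replicate 2 was also the adult library with the most adipocyte RNA. All 7 adipocyte markers were called higher at 4 months. Their summed level was 0.1499 to 0.377 RPKM at PND2 and 314, 1310 and 295 RPKM in the adult libraries. Cidec, Lep and Retn were at 0 in all PND2 libraries. On their PND2 libraries alone none of the 7 would have passed the filter on RPKM, which set the direction of these calls. Adipoq, the adiponectin gene, had 34.2, 134 and 41.2 RPKM at 4 months and at most 0.198 RPKM at PND2, and Plin1, which coats the lipid droplet, followed the same order of libraries (13.1, 42.7 and 15.9 RPKM). The part of these cells in the Pparg values was not tested. The forms of Pparg start at different first exons, and these are described on few reads, with no test. The Pparg2 form, known from adipocytes, starts at its own first exon (exon 1 of transcript Pparg-201, chromosome 6 from 115422066 to 115422192 of mm10). This exon had 0 reads in all PND2 libraries and in 4 months replicate 1, 21 reads (6.94 RPKM) in replicate 2 and 2 reads (0.544 RPKM) in replicate 3. Its 82 coding bases (chr6:115422111-115422192, plus strand, with the start codon in capitals) are shown because they begin the coding sequence of this form.
Pparg2 first coding exon: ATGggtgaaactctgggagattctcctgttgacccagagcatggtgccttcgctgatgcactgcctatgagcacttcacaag
The first exon of the Pparg1 form (exon 1 of Pparg-202, from 115360951 to 115361370) had 0.5495, 0.624 and 1.22 RPKM at PND2 and 1.02, 0.900 and 0.411 RPKM at 4 months, without the peak in replicate 2. The shared exon that follows had 4.50, 0.719 and 3.45 RPKM and then 5.75, 23.2 and 5.61 RPKM, with that peak.

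**Figure D5:**
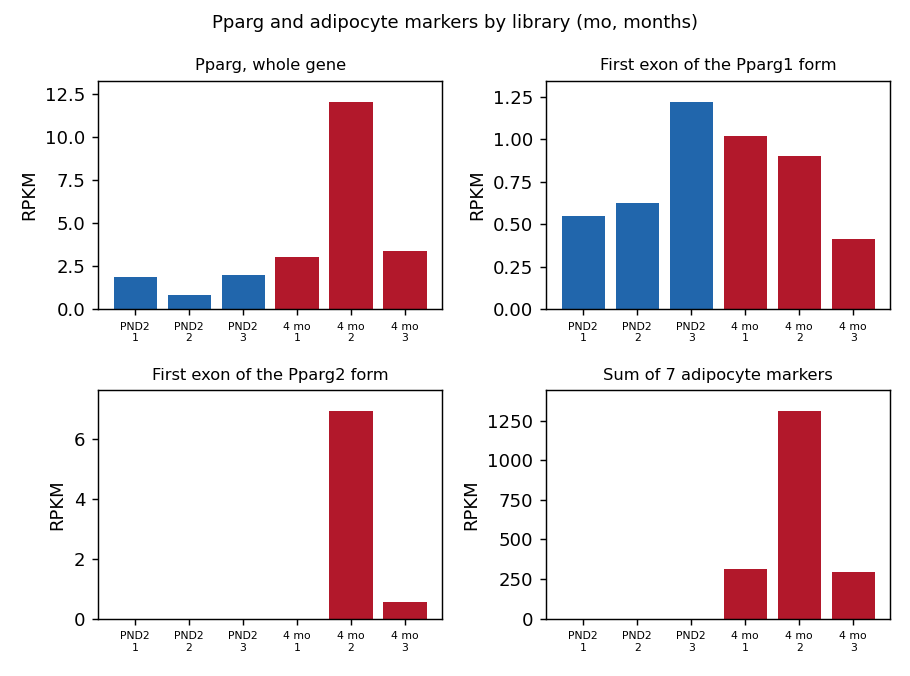
RPKM of Pparg, of the first exons of its forms and of the sum of 7 adipocyte markers in each library (bars from 0; blue, PND2; red, 4 months). The Pparg2 exon and the adipocyte markers are highest in 4 months replicate 2 (6.94 and 1310 RPKM), as is the whole gene (12.0 RPKM), whereas the Pparg1 exon is highest in PND2 replicate 3 (1.22 RPKM).

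Of 14 PPAR targets, 3 were higher and 3 lower, shares near the 14.7% and 21.1% of all genes tested. Adipoq and Plin1, which are also adipocyte markers, rose by 8.19 (SE 0.53) and 7.32 (SE 0.46) on the log2 scale. Neither would have passed the filter on RPKM with its PND2 libraries alone. Angptl4, a lipoprotein lipase inhibitor gene, fell from 43.1, 51.9 and 60.7 RPKM to 19.5, 15.7 and 14.9 RPKM (log2 fold change -1.63, SE 0.16, limma adjusted p = 4.3e-04). Of the 8 cardiomyocyte markers, 3 were called lower and none higher, and their part in the fall of Angptl4 was not tested.

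Among the orphan receptors outside the NR4A group, Rora and Nr2f2 rose, Nr0b2 fell and no other was called. Rora, which activates clock genes through the sites that Nr1d1 represses, had 2.44, 2.13 and 2.37 RPKM at PND2 and 7.19, 7.41 and 7.68 RPKM at 4 months, with the libraries of an age close together (log2 fold change 1.64, SE 0.15, limma adjusted p = 3.4e-04). Outside the member list, the clock repressors Nr1d1 and Nr1d2 rose by 2.68 (SE 0.21) and 1.38 (SE 0.18) on the log2 scale. The time of day of collection is not given in the sources used here. Nr2f2, the COUP-TFII gene of veins and mesenchyme, had 8.47, 7.23 and 10.1 RPKM and then 16.2, 11.6 and 12.8 RPKM. The ages did not overlap, but the call (log2 fold change 0.64, SE 0.18, limma adjusted p = 0.0277) was lost without any 1 of PND2 replicates 1 and 2 and 4 months replicates 1 and 3, the highest adjusted p being 0.0807. Nr0b2, which encodes SHP, a receptor without a DNA-binding domain that represses other receptors, had 2.99, 3.85 and 3.77 RPKM at PND2 and 1.16, 1.45 and 1.07 RPKM at 4 months, and fell by 1.46 (SE 0.22, limma adjusted p = 0.00262).

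The estrogen-related receptors, regulators of mitochondrial genes, were not called. Esrra had 23.1 to 31.0 RPKM at PND2 and 19.3 to 24.7 RPKM at 4 months, Esrrg 3.98 to 5.43 and 2.60 to 4.97 RPKM, and Esrrb 0.729 to 1.40 and 0.500 to 1.30 RPKM. Their coactivator genes Ppargc1a and Ppargc1b fell by 1.39 (SE 0.21) and 1.25 (SE 0.23) on the log2 scale. Esrrg passed the threshold without 4 months replicate 2 (log2 fold change -0.75, limma adjusted p = 0.044). The nuclear receptors Nr2c1, Nr2c2, Nr2f6, Nr2f1 and Nr6a1 had overlapping values or missed the threshold, with adult means of 5.93, 9.77, 19.8, 1.76 and 0.999 RPKM. Nr2c2 and Nr2f6 share 4590 and 1622 exonic bases with genes of the opposite strand, and 10 members in all share exonic bases with another gene. Rorb (0.0740 to 0.288 RPKM over all libraries) and Nr5a2 (0.0703 to 0.278 RPKM) were at the lower edge of the test.

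Of the receptors best known from liver, adrenal, brain and retina, 6 had few or no reads. Hnf4a and Hnf4g had 0 reads in all 6 libraries, which allows up to 0.0261 RPKM for Hnf4a and 0.0479 RPKM for Hnf4g if 3 reads are taken as the limit of a count of 0. Nr0b1, the adrenal gene DAX1, had 4 reads in PND2 replicate 1 and none elsewhere. Nr5a1, the steroidogenic factor 1 gene, had at most 0.0163 RPKM, Nr2e1 at most 0.0622 RPKM and Nr2e3, a photoreceptor gene, 0 reads at PND2 and at most 0.0636 RPKM at 4 months. These 6 genes were not tested.

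Of 13 coactivator genes, which receptors recruit to activate targets, 2 rose and 4 fell, and of 9 corepressor genes 1 rose and 1 fell. With 14.7% of all genes tested higher and 21.1% lower, counts of this size show nothing particular to the cofactors. Ncoa3 (SRC-3), which binds many ligand-bound receptors, rose from 11.4, 12.9 and 11.6 RPKM to 25.3, 23.9 and 24.6 RPKM (log2 fold change 1.03, SE 0.10, limma adjusted p = 4.0e-04). Carm1, an arginine methyltransferase gene, fell by 0.61 (SE 0.12). Of the corepressor complex, Tbl1xr1 rose by 0.54 (SE 0.15) and Hdac3 fell by 0.48 (SE 0.10), the former not being called without PND2 replicate 3 or 4 months replicate 2 or 3 (limma adjusted p of 0.0782 at most). Hsp90aa1, an HSP90 gene, was the member called among 8 genes for receptor chaperones, with a log2 fold change of 0.71 (SE 0.18), and was not called without PND2 replicate 2 or 3 (limma adjusted p of 0.0591 at most).

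Exon use was compared within genes, since alternative first and last exons give receptor forms of different activity. Annotated exons of a gene that overlap were tested as separate exons, although they share reads. Of 477 exons of 33 members, 0 were called by limma's diffSplice with voom weights, where 0.562% of all exons tested were called, and 20 had an unadjusted p under 0.05. The smallest adjusted p among them was 0.235. With a mean of at least 50 reads required, 0 of 281 exons were called, beside 0.672% of all such exons. Without weights, 4 exons were called. Without PND2 replicate 1, 6 exons of 3 members (Nr3c2, Nr2f6 and Nr4a2) were called, with nested exons of Nr3c2 among them. Among these, a long 5′ exon of Nr3c2 (chromosome 8 from 76908270 to 76910028) had 1.02, 2.78 and 2.06 RPKM at PND2 and 7.199, 7.71 and 6.07 RPKM at 4 months, and its last exon (from 77242375 to 77245012) 1.30, 1.66 and 1.80 RPKM and then 12.6, 13.1 and 11.4 RPKM. Both exons were higher in all adult libraries than in all postnatal ones, as was the whole gene. Relative to the other exons of the gene, their use went opposite ways, with a log2 difference of -0.81 for the 5′ exon and 0.35 for the last exon, neither called with all libraries (diffSplice adjusted p of 0.358 and 1).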

How the data were processed

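Aortic valves of PND2 and 4 month old mice were sequenced by the authors from total RNA with a stranded kit, in 3 pools per age. Reads were filtered and trimmed, aligned to mm10 with TopHat2 2.1.0 and counted on Ensembl genes and exons with easyRNASeq in R 3.2.2. The authors deposited RPKM for genes and exons without their minimum and floor on reads. Use of strand in the counting is not given in the sources used here. Library totals were inferred as the values that turn RPKM times exonic length into whole reads. With them 100% of values came out whole (within 0.01), which is what they were fitted to give. Read counts given here rest on these totals. Reads summed over genes came to 2.31 to 2.36 times the totals. A read may count at more than 1 gene, but the reason was not tested. The libraries were sequenced with paired-end reads, and the read counts given here need not be separate fragments.

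Members were matched by gene symbol. Genes reaching 0.1 RPKM in 3 libraries were compared on log2(RPKM + 0.1) by limma 3.58.1 with a mean-variance trend, in R 4.3.3. Tests were 2-sided and adjusted over all genes tested. The added 0.1 shrinks the fold change of genes with low RPKM. Ratios within a library were compared with exact permutation tests, and exon usage with diffSplice on voom weights for exons reaching 1 RPKM in 3 libraries. The per-gene and exon steps were tested on simulated data. Transcript names are from the GRCm38 annotation. Python 3.11.15, pandas 2.3.3, numpy 2.4.6 and matplotlib 3.10.9 served for the rest, and files were read in R with fread of data.table (version 1.17.8).

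The members and the lists around them were chosen with earlier results of these data known. Members that were called at a mean of at least 1 RPKM at either age are given in every library, and of each list up to 4 called genes with the largest fold change at that level are named, others being said to be chosen later. Some listed genes are not reported here. Alternatives were other pseudocounts and filters, no trend, the study's test and its floor at 10 reads, median scaling, quantile normalization, a replicate block, voom on recovered reads, other exon settings and leaving out each library. Exons with a mean of at least 50 reads were an alternative chosen after seeing the data.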

Additional observations from a re-analysis of the deposited data

How the results depend on the processing

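The number of members called was 14 to 20 under all alternatives except the unequal-variance test that the study ran gene by gene, with which 10 were called (9 higher, 1 lower), and it was 14 to 17 when a library was left out. Of the 16 called members, 10 kept their call under every alternative run. That test also called 24 of the listed genes in place of 54. Nr1h2 and Nr2f2 also lost the call without a filter on low values. Nr2f2 lost it in 8 of 17 alternatives, among them the fit without a trend and the floor at 10 reads. Exon calls rested on the setting: 4 exons of 4 members unweighted, 1 exon of 1 member at an exon RPKM of at least 0.3, and 0 to 6 exons of 0 to 3 members with a library left out, the 6 arising without PND2 replicate 1. No pairing of the libraries by replicate number was seen. The deviations of libraries with the same number correlated at 0.044, -0.061 and -0.16, and those with different numbers at -0.18 to 0.23. With 3 libraries per age such correlations cannot exclude a shared batch. With the replicate block 16 members were called, 14 higher and 2 lower, as without it, and so were 49 listed genes and 0 exons.

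Median scaling turned the sign of 4 members that were not called: Esrrb (0.022), Rxrb (0.021), Nr2c1 (0.059) and Nr2c2 (0.033). With a library left out, the log2 fold change ran from -0.33 to 0.28 for Esrrb, -0.034 to 0.15 for Rarb, -0.26 to 0.047 for Nr1h4, -0.10 to 0.13 for Nr1i3, -0.20 to 0.024 for Nr2c1 and -0.49 to 0.065 for Nr5a2. The difference in the log2 ratio of Nr4a1 to Nr4a3 was 0.12 with 0.1 added to both genes. The cause was not tested. Depth limits Esr2, Rorb, Nr5a2 and the first exons of Pparg, which rest on few reads.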
